A study of Mus musculus with 2 samples.

Results

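The desmosome genes described here are the desmogleins Dsg1a, Dsg1b, Dsg2 and Dsg3, the desmocollins Dsc1, Dsc2 and Dsc3, and the plaque proteins Jup, Pkp1 and Dsp. They were chosen by gene symbol, and all 10 were found among the 40879 symbols of the count files. Counts came from the intestine of mice on a C57BL/6 background, which the methods give as 8 weeks old, as germ-free and as housed in a specific pathogen-free facility. The study had 1 library of WT mice and 1 library labelled ERAP1+/-, each from RNA pooled from 3 mice, and no treatment is named for either in the labels. In the ERAP1+/- mice, exons 6 and 7 of Erap1 are deleted by Cre recombinase from an allele that came from 1 embryonic stem cell clone, and the strain that carried the Cre is not named in the methods.

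Counted reads totalled 8114826 for WT and 8907515 for the other library. Reads of Erap1 itself numbered 229 in WT and 2 in the library labelled ERAP1+/-, which is 0.730% of the WT level (95% interval 0.0878% to 2.67%). This goes against a label that gives the mice 1 intact copy, so the second library is called by its label throughout. The pools also differed in Xist, with 1635 and 6451 reads, and in the sum of 4 Y-linked genes, with 612 and 46 reads. Genotype and the make-up of the pools in these genes cannot be told apart. With 1 pooled library per genotype no difference has a replicate check, no p-value is given, and every interval covers counting error only.

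Desmosomes are spot-like junctions that fasten epithelial cells to each other and anchor their keratin filaments. Desmogleins and desmocollins are the cadherins that bridge the gap between the cells. Inside the cell, the armadillo proteins plakoglobin (Jup) and the plakophilins (Pkp genes) bind the cadherin tails, and desmoplakin (Dsp) ties this plaque to the keratins. Simple epithelia such as that of the intestine use mainly desmoglein 2 and desmocollin 2, called the broad type here, whereas the desmogleins 1 and 3 and the desmocollins 1 and 3 belong to stratified epithelia such as the epidermis and are called the epidermal type here.

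The desmosome genes separated by type. The 5 epidermal-type cadherins together had 440 reads in WT and 2 reads in the library labelled ERAP1+/-, a level of 0.380% of WT (95% interval 0.0458% to 1.38%). The 2 broad-type cadherins together had 6548 and 5347 reads, or 68.2% of the WT level (95% interval 65.8% to 70.7%). The plaque genes Jup and Dsp together stood at 57.6% of WT (95% interval 55.6% to 59.6%). Levels are given as CPM, reads scaled to a common library size, after normalisation of the libraries with TMM, which assumes that most genes do not differ. Reads were taken from the 3' ends of transcripts, so the number of reads depends little on transcript length and levels were not divided by length. Other effects on the reads per transcript, which can differ between genes, were not checked. Comparisons of level between genes are therefore comparisons of reads. In bulk tissue, fewer cells of a type and less RNA per cell cannot be told apart.

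A gene was counted as lower or higher where log2(CPM + 1) differed by more than 1, that is 2-fold on that scale, and reached 4 in 1 or both libraries. Of the 10 members 7 reached that level, and 3 of them (Dsg1b, Dsc1 and Pkp1) were lower in the library labelled ERAP1+/-. These 3 reached the level in the WT library only, so they passed the filter through the library where they were high. Among all 8013 genes past that level 3.96% were lower. No member was higher, against 1.39% of all genes past the level. With the level replaced by at least 10 reads in 1 or both libraries, all 10 members could be counted and 6 were lower (Dsg1a, Dsg1b, Dsg3, Dsc1, Dsc3 and Pkp1), where 5.92% of 15334 genes were lower and 3.14% higher. All of these 6 except Pkp1 reached 10 reads in the WT library only. The median log2 difference of the 10 members was -1.29 (ERAP1+/- minus WT), beside 0.01 over the 15334 genes.

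**Figure D1:**
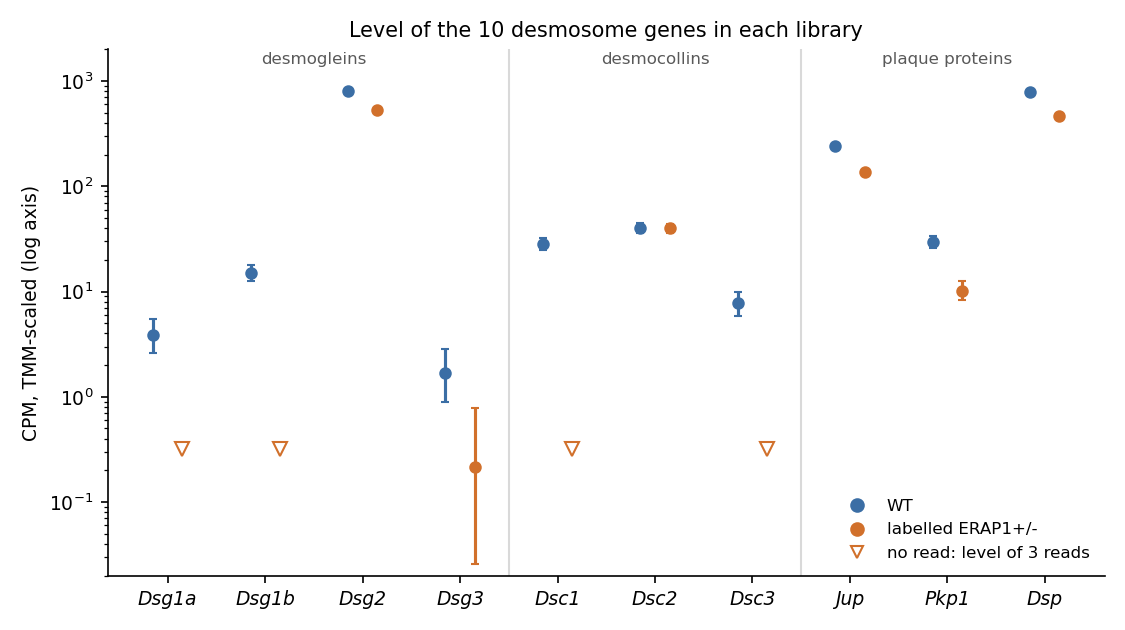
CPM on a log axis for the 10 desmosome genes in the WT library (blue) and the library labelled ERAP1+/- (orange), with exact 95% Poisson intervals as bars and open triangles at the level of 3 reads where no read was counted. Dsg2, Dsc2, Jup and Dsp lie at 39.8 CPM or more in both libraries, and the 4 genes with triangles are Dsg1a, Dsg1b, Dsc1 and Dsc3.

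Among the desmogleins, Dsg2 was the most abundant in both libraries. It had 6237 reads (803 CPM) in WT and 4977 reads (535 CPM) in the library labelled ERAP1+/-, a level 1.50-fold lower (95% interval 1.45 to 1.56). This placed it at rank 128 among all genes of the WT library and at rank 200 in the other. Dsg1b, 1 of the copies into which the desmoglein 1 gene is split in the mouse, had 117 reads (15.1 CPM) in WT and 0 in the library labelled ERAP1+/-. A count of 0 allows up to 3 reads, and against that floor Dsg1b was at least 46.7-fold lower, with an exact 95% limit of 37.4-fold. Its WT level lay just past the 15 CPM that a log2 value of 4 stands for.

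Dsg1a, another copy of desmoglein 1, had 30 reads (3.86 CPM) in WT and 0 in the library labelled ERAP1+/-, at least 12.0-fold lower against the floor (exact 95% limit 9.15-fold). Dsg3, the desmoglein of the deep layers of stratified epithelium, had 13 reads in WT and 2 in the library labelled ERAP1+/-. Its ratio was 12.9% of WT, with a wide interval from 1.41% to 56.8%. Every epidermal-type desmoglein was thus near or at the detection limit in the library labelled ERAP1+/-, while Dsg2 kept most of its level.

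Among the desmocollins, Dsc2 was the only member of the 10 with about the same level in both libraries. It had 311 reads (40.0 CPM) in WT and 370 reads (39.8 CPM) in the library labelled ERAP1+/-, and the 95% interval of the ratio (85.2% to 116% of WT) includes 100%. The sign of this small difference depends on the scaling: log2 -0.01 with TMM, 0.11 with the total count and 0.29 when libraries were scaled by 13 genes of intestinal epithelium. Dsc1, the desmocollin of the upper layers of the epidermis, had 220 reads (28.3 CPM) in WT and 0 in the library labelled ERAP1+/-. It was at least 87.8-fold lower against the floor of 3 reads (exact 95% limit 70.8-fold), the lowest upper limit of the 10 genes. Dsc3, found in the basal layers of stratified epithelium, had 60 reads (7.72 CPM) and 0 reads, at least 23.9-fold lower (exact 95% limit 18.9-fold).

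Shares within a library do not depend on the scaling between libraries. Of the desmocollin reads in the WT library, Dsc2 took 52.6% (exact binomial 95% interval 48.5% to 56.7%), Dsc1 37.2% (33.3% to 41.3%) and Dsc3 10.2% (7.84% to 12.9%). In the library labelled ERAP1+/-, all 370 desmocollin reads were of Dsc2, and the count of 0 allows each of the others a share of up to 0.811%. Of the desmoglein reads, Dsg2 took 97.5% (97.1% to 97.9%) in WT and 99.96% (99.9% to 99.995%) in the other. The epidermal type made up 6.30% of all desmoglein and desmocollin reads in the WT library (5.74% to 6.89%) and 0.0374% in the library labelled ERAP1+/- (0.00453% to 0.135%). For every 100 reads of Dsg2 there were 4.99 reads of Dsc2 in WT and 7.43 in the library labelled ERAP1+/-, a ratio 1.49 times as high (exact 95% interval 1.27 to 1.75).

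**Figure D2:**
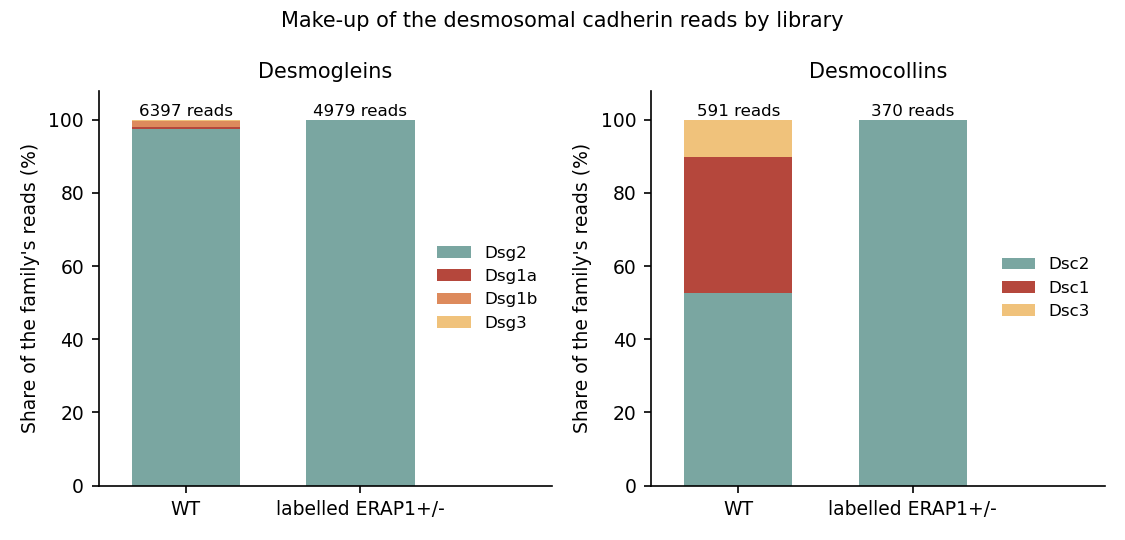
Stacked bars give the share, in percent, of the desmoglein reads (left) and desmocollin reads (right) that each gene took in WT and in the library labelled ERAP1+/-, with the number of reads above each bar. Dsc1 and Dsc3 made up 47.4% of the desmocollin reads in WT and had no read in the other, while Dsg2 took at least 97.5% of the desmoglein reads in both.

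Near-identical copies can share reads. The reads were 75 bases long and came from 3' ends, so every window of 75 bases within the last 500 bases of the coding transcripts of each member was searched for in the transcripts of all other genes (GENCODE M21). For Dsg1b, 4 of 426 windows also occurred in Dsg1a, and no window of Dsg1a or of any other member occurred in another gene. Only exact matches were counted, so a window with 1 differing base counts as not shared. Whether reads aligned with mismatches could be assigned to the other copy was not tested. Dsg2 overlaps the antisense gene Gm16090, which had 0 reads in WT and 1 in the other. Pkp1 overlaps Gm36938 on the same strand and Dsp overlaps Gm10129 on the opposite strand, and neither of these has counts in the count files. Whether the counting used the strand of the reads is not stated in the methods.

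All 7 cadherin members lie in 1 cluster on chromosome 18 of GRCm38, which spans 644 kb from 19960930 to 20604521. In the order of the chromosome the genes are Dsc3, Dsc2, Dsc1, Dsg1c, Dsg1a, Dsg1b, Dsg4, Dsg3 and Dsg2. The desmocollins are on the minus strand and the desmogleins on the plus strand. The 2 genes with many reads in both libraries do not adjoin each other. Dsc2 (20030633 to 20059554) lies between Dsc3 (19960930 to 20002351) and Dsc1 (20084184 to 20114871), which both had no read in the library labelled ERAP1+/-, and Dsg2 (20558074 to 20604521) lies at the far end next to Dsg3 (20510274 to 20547459). Dsg1a runs from 20310811 to 20343350 and Dsg1b from 20376729 to 20410196.

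The cluster holds 2 genes that are not members. Dsg1c, the third copy of desmoglein 1, had 1 read in WT and 0 in the library labelled ERAP1+/-, too few for a ratio. Dsg4, a desmoglein of hair, had 13 and 0 reads, which against the floor is at least 5.19-fold lower (exact 95% limit 3.65-fold). Of the 7 listed genes within 500 kb beside the cluster, all on the side of Dsg2, 5 reached the level of 4 on the log2 scale and none of them was lower or higher by more than 2-fold. Those with the most reads were Ttr (391 and 709 reads), B4galt6 (327 and 428), Mep1b (351 and 330) and Rnf125 (255 and 324). Dsc2, within 2-fold of WT, thus lay between epidermal-type cadherins with lower reads, and Dsg2, also within 2-fold, lay at 1 end of the cluster. On the side of Dsc3 no gene was listed within 500 kb, so that side is not described.

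**Figure D3:**
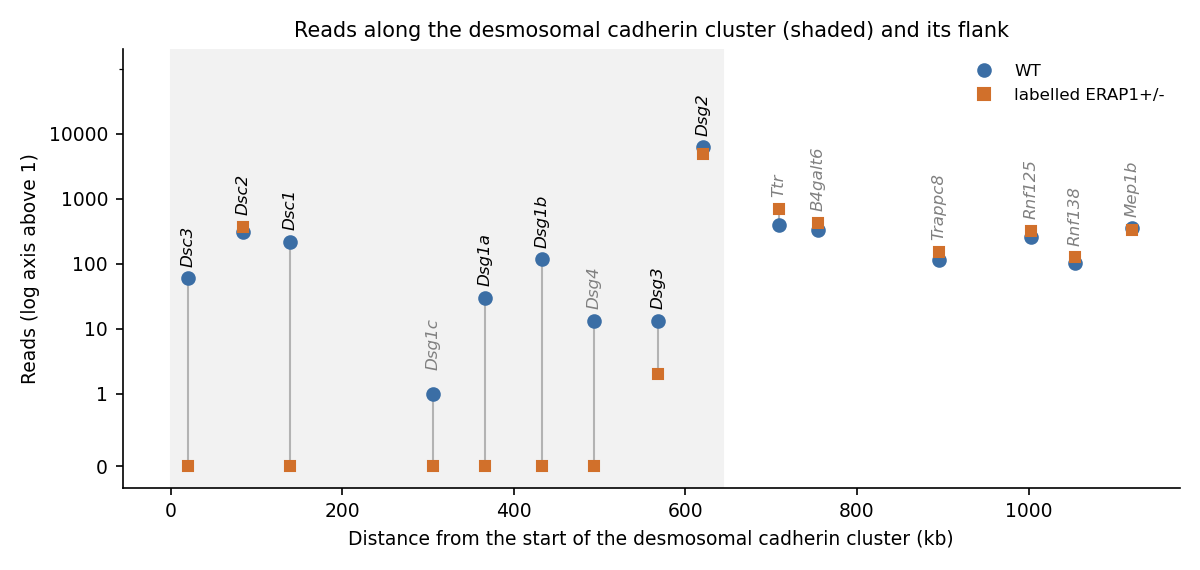
Reads in the WT library (blue circles) and in the library labelled ERAP1+/- (orange squares) for the coding genes along the desmosomal cadherin cluster (shaded) and beside it, by distance in kb from the start of the cluster, on an axis that is logarithmic above 1. The squares of Dsc3, Dsc1, Dsg1c, Dsg1a, Dsg1b and Dsg4 lie at 0, and those of Dsc2 and of Dsg2 lie near the circles.

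The plaque genes Dsp and Jup differed by nearly the same factor. Dsp had 6168 reads (794 CPM) in WT and 4282 reads (460 CPM) in the library labelled ERAP1+/-, 1.72-fold lower (95% interval 1.66 to 1.79). Jup had 1869 reads (241 CPM) and 1257 reads (135 CPM), 1.78-fold lower (95% interval 1.66 to 1.91). The ratio of Jup to Dsp reads was 0.303 in WT and 0.294 in the other, and the interval of the change in this ratio (0.892 to 1.05) includes 1. Both were lower relative to Dsg2 as well, with a change in ratio of 0.870 for Dsp (0.824 to 0.918) and 0.843 for Jup (0.777 to 0.914).

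Pkp1, plakophilin 1, is the plakophilin of the suprabasal layers of stratified epithelia. It had 228 reads (29.3 CPM) in WT and 95 reads (10.2 CPM) in the library labelled ERAP1+/-, 2.87-fold lower (95% interval 2.25 to 3.69). Its level was 34.8% of WT, below the interval of Dsp and above the upper limits of Dsg1a, Dsg1b, Dsc1 and Dsc3, whereas the wide interval of Dsg3 includes it. Per 100 reads of Dsp there were 3.70 reads of Pkp1 in WT and 2.22 in the library labelled ERAP1+/-, a ratio 0.600 times as high (0.466 to 0.768). The gene occupies positions 135871395 to 135919207 of chromosome 1 (GRCm38, minus strand).

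Dsp occupies positions 38151294 to 38198577 of chromosome 13 (plus strand), 36.5 Mb from the start of Erap1, and Jup positions 100368958 to 100397763 of chromosome 11 (minus strand). Their promoter windows, from 250 bases before to 50 bases after the start of the gene (RefSeq, GRCm38.p6), are shown. No promoter sequence was at hand for the plaque gene Pkp1, so its window is left out. Whether the windows have a part in the levels of Dsp and Jup was not tested. Capitals mark each GGGCGG or its reverse complement, the GC box.
Dsp, chr13:38151044-38151343, plus strand: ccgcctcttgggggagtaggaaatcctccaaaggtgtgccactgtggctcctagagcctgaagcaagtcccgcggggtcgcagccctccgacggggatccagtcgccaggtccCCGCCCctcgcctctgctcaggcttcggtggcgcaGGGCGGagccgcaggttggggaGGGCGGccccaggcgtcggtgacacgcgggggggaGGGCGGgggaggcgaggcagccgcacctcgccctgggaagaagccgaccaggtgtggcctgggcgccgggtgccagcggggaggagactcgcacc
Jup, chr11:100397741-100398040, minus strand: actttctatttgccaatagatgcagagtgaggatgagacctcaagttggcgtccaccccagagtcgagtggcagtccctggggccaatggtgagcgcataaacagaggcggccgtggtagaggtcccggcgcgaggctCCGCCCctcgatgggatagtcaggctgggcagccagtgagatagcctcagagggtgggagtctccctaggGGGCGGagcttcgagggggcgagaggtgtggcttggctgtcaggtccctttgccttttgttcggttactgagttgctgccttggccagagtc
The GC box occurred 4 times in the window of Dsp and 2 times in that of Jup, counting both strands, and 35.7% of 32851 promoter windows of the same length held it. Of the bases, 73.0% were G or C in the window of Dsp and 60.7% in that of Jup, against a median of 52.7% over all windows. Neither window held TATAAA, which 13.6% of all windows held, or AACCGGTT, a sequence bound by grainyhead-like factors, which 0.146% of all windows held. These matches describe letters in the windows and do not show that a factor binds there.

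In order of level, Dsg2 and Dsp led the WT library with overlapping intervals, followed by Jup, Dsc2, Pkp1, Dsc1, Dsg1b, Dsc3, Dsg1a and Dsg3. Pkp1 and Dsc1 had overlapping intervals, as did Dsg1a and Dsg3. In the library labelled ERAP1+/- the first 5 genes were in the same order, with intervals that did not overlap between neighbours, so that Dsp stood below Dsg2. Of the reads of the 10 genes, Dsg2 took 40.9% in the WT library (40.1% to 41.7%) and 45.3% in the other (44.4% to 46.3%), and Dsp took 40.4% (39.7% to 41.2%) and 39.0% (38.1% to 39.9%). The 10 genes together made up 0.188% of all counted reads in WT and 0.123% in the library labelled ERAP1+/-.

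Desmosomes hold other proteins beside the 10 members. Of 10 such genes, 7 reached the level of 4 on the log2 scale and 3 were more than 2-fold lower, again beside 3.96% of all genes. Of these 3, Cdsn and Ppl reached the level in the WT library only. Cdsn, corneodesmosin of the cornified layers of the epidermis, had 296 and 14 reads and was 25.3-fold lower (95% interval 14.8 to 46.9). Ppl and Evpl encode periplakin and envoplakin, plakins that join desmosomes to the cornified envelope. Ppl had 398 and 72 reads, 6.62-fold lower (5.14 to 8.63), and Evpl had 318 and 167 reads, 2.28-fold lower (1.88 to 2.77). Perp, a membrane protein of desmosomes in stratified epithelium, had 2089 and 1260 reads and was 1.98-fold lower (1.85 to 2.13).

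The remaining plakophilins were nearer to WT than Pkp1. Pkp3, found in most epithelia, had 1040 and 761 reads, 1.64-fold lower (1.49 to 1.80). Pkp2, the plakophilin of simple epithelia and heart, had 193 and 175 reads, 1.32-fold lower (1.07 to 1.63). Pkp4 had 475 and 472 reads, 1.20-fold lower (1.06 to 1.37), and Kazn, which encodes the periplakin-binding protein kazrin, had 66 and 49 reads, 1.61-fold lower (1.10 to 2.38). For every 100 reads of Pkp2 there were 118 reads of Pkp1 in WT and 54.3 in the library labelled ERAP1+/-, a ratio 0.460 times as high (0.331 to 0.637). Relative to Dsp, Pkp3 had a change in ratio of 1.05, with an interval (0.951 to 1.17) that includes 1.

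**Figure D4:**
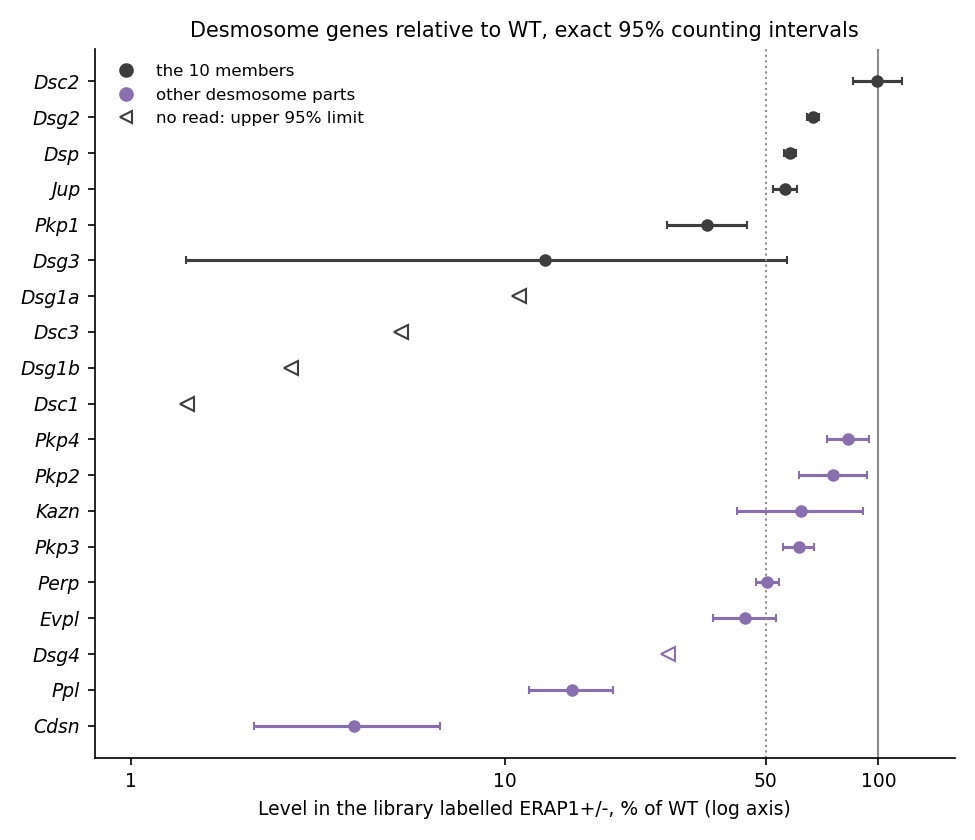
Level in the library labelled ERAP1+/- as a percent of WT, on a log axis, for the 10 members (dark) and the other desmosome parts with at least 10 reads (purple), with exact 95% counting intervals as bars and open triangles at the upper 95% limit where no read was counted. Dsc2 lies at 99.4% and Dsg2, Dsp and Jup between 56.2% and 66.7%, while Dsc1 has the lowest limit, 1.41%.

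Adherens junctions and hemidesmosomes were the other junctions measured. Adherens junctions, which join the actin filaments of neighbouring cells, were described by 12 genes, of which 9 reached the level of 4 and none was more than 2-fold lower or higher. The most abundant were Cdh1, which encodes E-cadherin (18810 and 16678 reads), Ctnnb1, β-catenin (5377 and 5252), Ctnnd1, p120-catenin (2498 and 2841), and Cdh17, an intestinal cadherin (2331 and 2240). Hemidesmosomes fasten the basal side of epithelial cells to the basement membrane, and none of the 8 genes of this kind past the level was more than 2-fold lower or higher. The most abundant of the 9 were Plec, plectin (2767 and 2227 reads), Itga6, integrin α6 (1839 and 1907), Dst (1385 and 1394) and Cd151 (1283 and 1207). With the rule of at least 10 reads, 1 gene of each list was lower, Nectin4 of the adherens junction (103 and 37 reads) and Col17a1 of the hemidesmosome (35 and 4). The summed level was 78.6% of WT (77.5% to 79.8%) for the adherens junction and 73.7% (71.5% to 75.9%) for the hemidesmosome, beside 60.1% (58.7% to 61.6%) for the 10 desmosome genes.

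Keratins, the filaments to which desmosomes attach, showed the same separation by type. Of the keratins of simple epithelium Krt7, Krt8, Krt18, Krt19 and Krt20, only Krt20 was more than 2-fold lower in the library labelled ERAP1+/- (5156 and 2674 reads). Those with the most reads were Krt19 (10776 and 9290), Krt8 (7561 and 7022), Krt20 and Krt18 (1806 and 2194). Of 10 keratins of stratified epithelium, all 7 past the level of 4 were lower, beside 3.96% of all genes past it. All of these 7 except Krt6a reached the level in the WT library only. The summed level of the 10 was 4.71% of WT (4.28% to 5.18%). The most abundant were Krt10 (3922 and 72 reads), Krt1 (1049 and 6), Krt6a (996 and 160) and Krt14 (623 and 97). Krt2 had no read in either library.

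Among 8 transcription factors of stratified epithelium, 5 reached the level of 4 and 1 was more than 2-fold lower, Grhl1, a grainyhead-like factor (153 and 8 reads). The most abundant, Klf4, which is also made in intestinal epithelium, had 20240 and 15474 reads. Grhl2 had 199 and 221 reads, and Ovol1 had 144 and 134. Trp63, the master regulator of stratified epithelium, had 23 and 0 reads. Of 8 proteases and protease inhibitors that act on desmosomal proteins, 5 reached the level and 3 were lower. In both lists the lower genes reached the level in the WT library only, and 3.96% of all genes past it were lower. Klk7, a kallikrein of the outer epidermis, had 735 and 0 reads, and the inhibitor Spink5 had 4453 and 24 reads. The membrane proteases Adam10 (540 and 733 reads) and Adam17 (353 and 320) were within 2-fold.

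Markers of stratified epithelium and hair follicle were lower along with the epidermal-type members, whereas the sum of the intestinal epithelium markers stayed within 2-fold of WT. Intestinal epithelium was present in both libraries: all 13 of its markers reached the level of 4 and their sum was 11383 CPM in WT and 9226 CPM in the library labelled ERAP1+/-, or 81.1% of WT (80.3% to 81.8%). All 11 markers of the suprabasal epidermis were lower in the library labelled ERAP1+/-, beside 3.96% of all genes past the level. Their sum was 2692 CPM in WT and 47.7 CPM in the other, where Ivl, Lce1a1 and Lce1b had no read. Casp14 kept the most, 33.4% of WT, and gave 27.2 of the 47.7 CPM. All the others reached the level of 4 in the WT library only. All 6 markers of basal stratified epithelium were lower by the rule of at least 10 reads (288 and 21.3 CPM in sum, Trp63 at 0), as were all 7 of the hair follicle (139 and 4.19 CPM, Krt25, Krt27, Krt28, Krt71 and Krt73 at 0). By that rule 5.92% of all genes were lower. Some lists share genes. Cdsn belongs both to the suprabasal markers and to the other desmosome parts. Krt1 and Krt10 (suprabasal) and Krt5, Krt14 and Krt15 (basal) are also among the keratins of stratified epithelium. The intestinal markers Krt8, Krt18, Krt19 and Krt20 are also keratins of simple epithelium, and Cdh1 and Cdh17 are also adherens junction genes. Trp63 is also among the transcription factors and Col17a1 among the hemidesmosome genes. These lists are therefore not separate evidence. The part of these tissues in the levels of the desmosome genes was not tested.

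Skeletal muscle, which has no desmosomes, differed in the same direction. Of its 8 markers 7 were lower, and their sum was 668 CPM in WT and 15.6 CPM in the library labelled ERAP1+/-, with Atp2a1 at 0. These 7 reached the level of 4 in the WT library only, and 3.96% of all genes past it were lower. Heart muscle, whose cells are joined by desmosomes of Dsg2, Dsc2, Pkp2, Jup and Dsp, was barely detected: the sum of its 6 markers was 19.3 and 15.2 CPM, Myh6 and Nppa had no read in the WT library, and Ryr2 gave 121 and 112 of the reads. Endothelium, which uses plakoglobin at its junctions without desmosomes, had a sum of 97.9 CPM in WT and 109 CPM in the library labelled ERAP1+/-. Whether any of these cells contributed to the differences in Jup or Dsp was not tested.

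**Figure D5:**
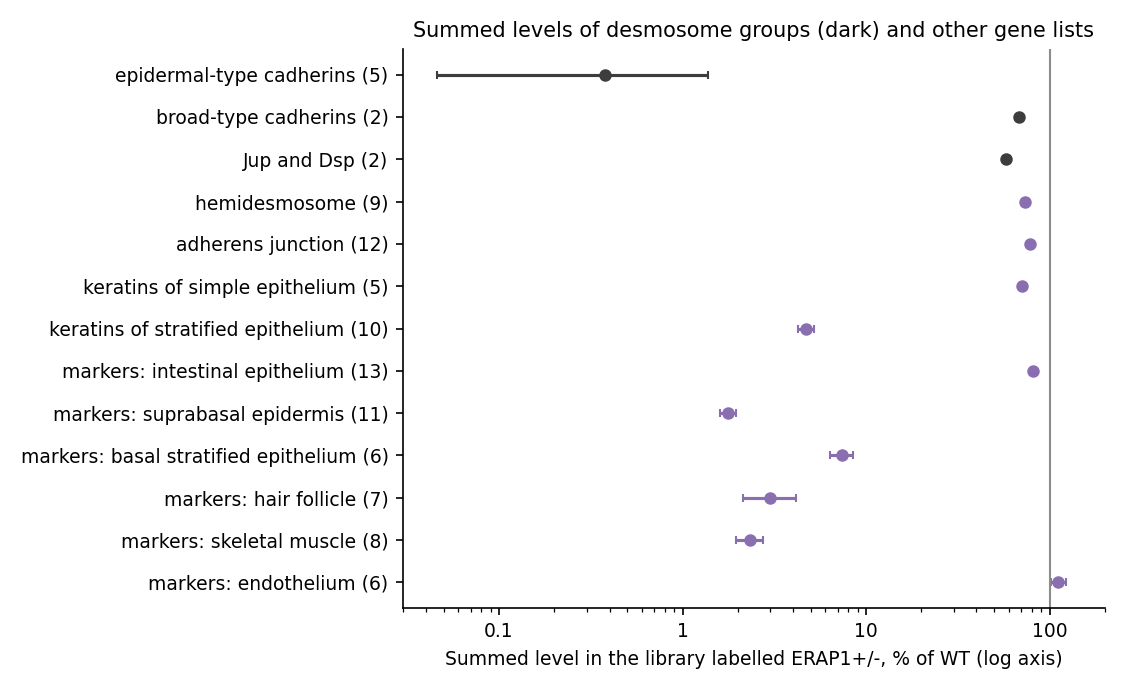
Summed level in the library labelled ERAP1+/- as a percent of WT, on a log axis, for groups of desmosome genes (dark) and other gene lists (purple), with the number of genes in parentheses and exact 95% counting intervals as bars. The epidermal-type cadherins, at 0.380%, lie with the lists of suprabasal and basal stratified epithelium, hair follicle and skeletal muscle, all below 8%, whereas the broad-type cadherins, at 68.2%, lie nearer to intestinal epithelium, at 81.1%. Some of the lists share genes.

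The broad-type and plaque members were also set against the summed reads of the 13 intestinal epithelium markers in place of the whole library. The markers themselves ranged from 43.3% (Krt20) to 167% (Cdx2) of the WT level, a spread that the intervals below do not cover. The reads of Dsg2 per 100 reads of these markers were 7.05 in WT and 5.80 in the library labelled ERAP1+/-, a ratio 0.822 times as high (exact 95% interval 0.791 to 0.855). The corresponding change was 0.715 for Dsp (0.687 to 0.745), 0.693 for Jup (0.644 to 0.745) and 0.429 for Pkp1 (0.334 to 0.548). For Dsc2 it was 1.23 (1.05 to 1.43), that is higher. Among the other parts, the change was 0.622 for Perp (0.579 to 0.667), 0.754 for Pkp3 (0.686 to 0.829) and 0.934 for Pkp2, whose interval (0.757 to 1.15) includes 1.

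The genes closest to a member were found by the distance between their log2(CPM + 1) values over the 2 libraries, which describes level more than pattern. Nearest to Dsc1 were Kprp (distance 0.02), Teddm3 (0.04) and Atp2a1 (0.05), with 213 to 227 reads in WT and none in the other. Nearest to Dsg1b were the hair proteins Krtap3-2 (0.01), Krtap6-1 (0.02) and Krtap16-3 (0.05). Nearest to Dsg2 were Ezr, which encodes ezrin of the brush border (6260 and 4937 reads, distance 0.01), Cnn1, calponin of smooth muscle (6351 and 4768, 0.07), and AA467197 (5953 and 4995, 0.07).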

How the data were processed

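Intestinal RNA of 3 mice of each genotype was combined and sequenced from the 3' ends of transcripts (QuantSeq 3' FWD, single-end 75 bases), 1 library per genotype. The values deposited by the authors are raw counts of reads per gene symbol. The methods name STAR with HTSeq in one place and Bowtie2 with RSEM on GRCm38 in another, and which of them made the counts is not stated. Normalisation used the TMM method of edgeR 4.0.16 under R 4.3.3, with factors of 0.958 (WT) and 1.04 (library labelled ERAP1+/-), and gave CPM and log2(CPM + 1). Ratios carry exact conditional binomial 95% intervals, levels exact Poisson intervals and shares exact Clopper-Pearson intervals (scipy 1.17.1). Where no read was counted, the floor was 3 reads (0.386 CPM in WT, 0.322 CPM in the other library). With 1 library per group no test was run. The counting rule and intervals were tested on simulated data that held counting error only. Changes were planted only in genes past the level of 4. Differences between mice or pools, and the recovery of changes in genes with few reads, were therefore not covered. The members and gene lists were chosen with earlier results of these data known. All members, the other desmosome parts and up to 4 of the most abundant genes of each further list were named, except for 1 result that is not reported here, and the 3 nearest genes were printed for Dsc1, Dsg1b and Dsg2. Nectin4, Col17a1, Krt2, Grhl1, Trp63, Krt7, Casp14 and the markers at 0 were named after their values were seen. Genes shared between lists were also named. Coordinates came by symbol from GENCODE M21 on GRCm38. Alternatives were DESeq2 1.42.0 size factors, other scalings, filters, a pseudocount of 0.1 and a 4-fold threshold.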

Additional observations from a re-analysis of the deposited data

How the results depend on the processing

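The number of desmosome genes more than 2-fold lower was 3 with TMM scaling and a log2 level of 4 (Dsg1b, Dsc1 and Pkp1), and 6 both with no filter on low values and with at least 10 reads in 1 or both libraries. It was 3 with DESeq2 size factors, and 2 with scaling by the total count, with scaling by the intestinal epithelium markers and with a pseudocount of 0.1, where Dsg1b dropped below the level, and 2 with a 4-fold threshold, where Pkp1 did not pass. None of the 7 alternatives gave a higher member. All 10 differences were below 0 with TMM, so only the alternatives that changed the scaling could have given 1. The log2 difference of the summed level of the 10 genes was -0.73, or -0.61 with the total count and -0.43 with the epithelium markers, scalings that shifted the median difference of all genes by 0.12 and 0.30. The share of epidermal-type reads was 6.30% in the WT library, or 2.50% for desmogleins only and 47.4% for desmocollins only. In the library labelled ERAP1+/- it was 0.0374%, or 0 for desmocollins only. Of 50 recomputed differences of single members, 38 stayed within the counting interval and 12 moved beyond it. None of the 3 lower genes changed direction, which for Dsg1b and Dsc1 was fixed in advance by their count of 0 in the library labelled ERAP1+/-. Dsc2 went from -0.01 to 0.11 with the total count and 0.29 with the epithelium markers. With a pseudocount of 0.1, Dsc1 was -8.15 in place of -4.87 because it had no read in 1 library. Depth limits Dsg1a and Dsg3, with 30 and 13 reads in the WT library. No paired analysis was possible because there was only 1 library for each genotype.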
